A study of Saccharomyces cerevisiae with 24 samples.

Results

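The genes described here encode 54 factors that assemble the large subunit of the yeast ribosome. They were taken from a list of gene names, and all 54 were found among the 5656 genes that had a probe set naming a single gene. Each gene is represented by its probe set with the highest mean signal. The factors bind the ribosomal RNA precursor in the nucleolus, fold and trim it together with ribosomal proteins, and leave the particle on its way through the nucleoplasm to the cytoplasm. In budding yeast their genes belong to the ribosome biogenesis regulon, a large set of genes known to be transcribed together when growth conditions are good and to be repressed together under stress.

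RNA was measured on 24 Affymetrix arrays from 12 strains of Saccharomyces cerevisiae, with 2 biological replicates per strain. The deleted gene encoded a large subunit protein in 7 strains, namely both RPL7 deletions (rpl7a and rpl7b), both RPL12 deletions (rpl12a and rpl12b), rpl14a, and both RPL22 deletions (rpl22a and rpl22b). It encoded a small subunit protein in 4 strains (rps0a, rps0b, rps18a and rps18b), and the isogenic wild type was BY4741, a haploid laboratory strain. All cultures were grown in YPD, a rich medium, at 30 °C and taken in early log phase. The design asks whether the deletion of either copy of a duplicated ribosomal protein gene has the same effect, and 5 pairs of copies are represented: RPL7, RPL12, RPL22, RPS0 and RPS18. The number of clones behind each deletion is not given in the labels used.

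Median deposited signals of 36.3 to 61.4 per array stood against backgrounds of 5.55 to 30.8, the highest background being that of rps0a replicate 2, and all 54 assembly genes lay above the background on all 24 arrays. The 6 a-specific mating genes were above background on 24 of 24 arrays, whereas STE3, a receptor of the other mating type, had a median signal of 13 and was above background on 17. SAG1, MF(ALPHA)1 and MF(ALPHA)2 of that mating type were above it on 24, 23 and 24 arrays, with SAG1 at 57.5 to 111. Of the marker genes that BY4741 lacks, URA3 was above background on 0 arrays, MET17 on 6, LEU2 on 22 and HIS3 on 24. RPL7A, RPL7B, RPL14A, RPL22A, RPL22B, RPS0A and RPS0B, which have separate probe sets, were lower in their own strain, 7 of 7. In 8 of the 12 strains the closest array, by correlation over all probe sets, belonged to a different strain. Values below are normalised signals of replicate 1 and replicate 2, and differences are on the log2 scale ± SE from limma, deletion minus wild type, with p-values adjusted over 9275 probe sets and a threshold of 0.05.

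In 3 strains most genes of a chromosome stood high. In rpl7a the 434 genes of chromosome XVI stood at a median of 0.95 above wild type, in rpl12b the 253 genes of chromosome V at 0.95, and in rpl14a the 257 genes of chromosome VIII at 0.79. The copy number of these chromosomes was not measured. Of the assembly genes, 6 lie on XVI (NOP4, RRP15, NIP7, NOG1, TIF6 and JIP5), 3 on V (NOP16, NUG1 and NSA2), 3 on VIII (RPF1, CIC1 and SSF1) and 42 elsewhere. They are given apart in those 3 strains.

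In rpl7a, 6 of the 54 assembly genes rose and 0 fell, and the 6 were the members on chromosome XVI. None of the other 48 passed the test, and 5 of them had an unadjusted p under 0.05. At that threshold lay 11 of all 54 members (20.4%) and 19.6% of all probe sets, those of chromosome XVI included. Of all probe sets 3.58% were called higher in rpl7a, 43.0% of those of chromosome XVI and 1.32% of the others, while 2.99% were called lower. JIP5, a nucleolar protein needed to make the large subunit, had signals of 555 and 479 in rpl7a and 174 and 168 in wild type, a difference of 1.59 ± 0.18 (adjusted p = 0.00019). TIF6, the yeast form of eIF6, which keeps the large subunit from joining the small one until it is mature, had signals of 1433 and 1864 in rpl7a and 652 and 616 in wild type (1.37 ± 0.18, adjusted p = 5e-04). Both rpl7a arrays lay far above both wild-type arrays for either gene.

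RRP15, a factor of precursor RNA processing that works with RRP14 and SSF1, had signals of 191 and 206 in rpl7a and 29.6 and 76.4 in wild type. Its difference of 2.06 ± 0.55 (adjusted p = 0.0386) was above that of the chromosome's median gene, but the wild-type arrays were far apart. The remaining members on XVI lay between NIP7 at 0.77 ± 0.16 (adjusted p = 0.0103) and NOP4 at 1.54 ± 0.36 (adjusted p = 0.0181), with NOG1 at 1.33 ± 0.34 (adjusted p = 0.0289). NIP7 is a nucleolar factor that binds the precursor RNA, NOP4 a protein with RNA recognition motifs and NOG1 a GTPase of the nucleolar particle. JIP5 and TIF6 passed the test without any one of the 4 arrays compared. The count of called members was 2 without rpl7a replicate 1, 3 without wild type replicate 1, and 4 without rpl7a replicate 2 or wild type replicate 2. In such fits the strain's lone array is assumed to vary like the other strains.

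In rpl12b, NSA2 was the only assembly gene called, on a background of 1.50% of probe sets called higher, 38.2% on chromosome V and 0.389% elsewhere, and of 0.604% called lower. NSA2, a protein of late nuclear particles, had signals of 720 and 622 in rpl12b and 339 and 287 in wild type (1.10 ± 0.18, adjusted p = 0.00599). The call was lost without wild type replicate 2. The other members on V were as high in rpl12b but did not pass: NUG1, a GTPase, had signals of 1050 and 928 in rpl12b and 581 and 475 in wild type (0.91 ± 0.26, adjusted p = 0.11). NOP16, a constituent of the nucleolar particle, had signals of 271 and 352 in rpl12b and 39.5 and 131 in wild type (2.10 ± 0.73, adjusted p = 0.227). Neither gene's arrays overlapped between the strains.

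In rpl14a, 3 assembly genes rose, all on chromosome VIII, on a background of 1.89% of probe sets called higher, 30.1% on chromosome VIII and 0.958% elsewhere, and of 1.46% called lower. RPF1, of the Brix family of proteins that bind folded ribosomal RNA, had signals of 217 and 273 in rpl14a and 82.7 and 74.1 in wild type (1.63 ± 0.22, adjusted p = 0.00103). SSF1, also of the Brix family, had signals of 210 and 231 in rpl14a and 66.7 and 91.9 in wild type (1.49 ± 0.33, adjusted p = 0.0268). CIC1, which binds the spacer RNA of the large subunit precursor, had signals of 414 and 389 in rpl14a and 239 and 198 in wild type (0.89 ± 0.15, adjusted p = 0.00489). RPF1 was called without any one of the 4 arrays, while SSF1 was lost without each of them and CIC1 without wild type replicate 2, which left a count of 1. Of the 51 members on other chromosomes 0 were called and 13 had an unadjusted p under 0.05. At that threshold lay 16 of all 54 members (29.6%) and 15.8% of all probe sets, those of chromosome VIII included. Among the 51, RRP14 had signals of 147 and 185 in rpl14a and 27.5 and 91.9 in wild type (1.71 ± 0.60, adjusted p = 0.157).

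SSF1 and SSF2 are close copies of each other, and the probe set used for SSF2 is marked on the array as shared within a gene family, so part of its signal may come from SSF1. SSF2, on chromosome IV, had signals of 50.2 and 68.1 in rpl14a and 43.6 and 57.2 in wild type (0.23 ± 0.27, adjusted p = 0.787), so these arrays overlapped where those of SSF1 did not.

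The heat map of all members by role places these chromosome members beside the rest.

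**Figure D1:**
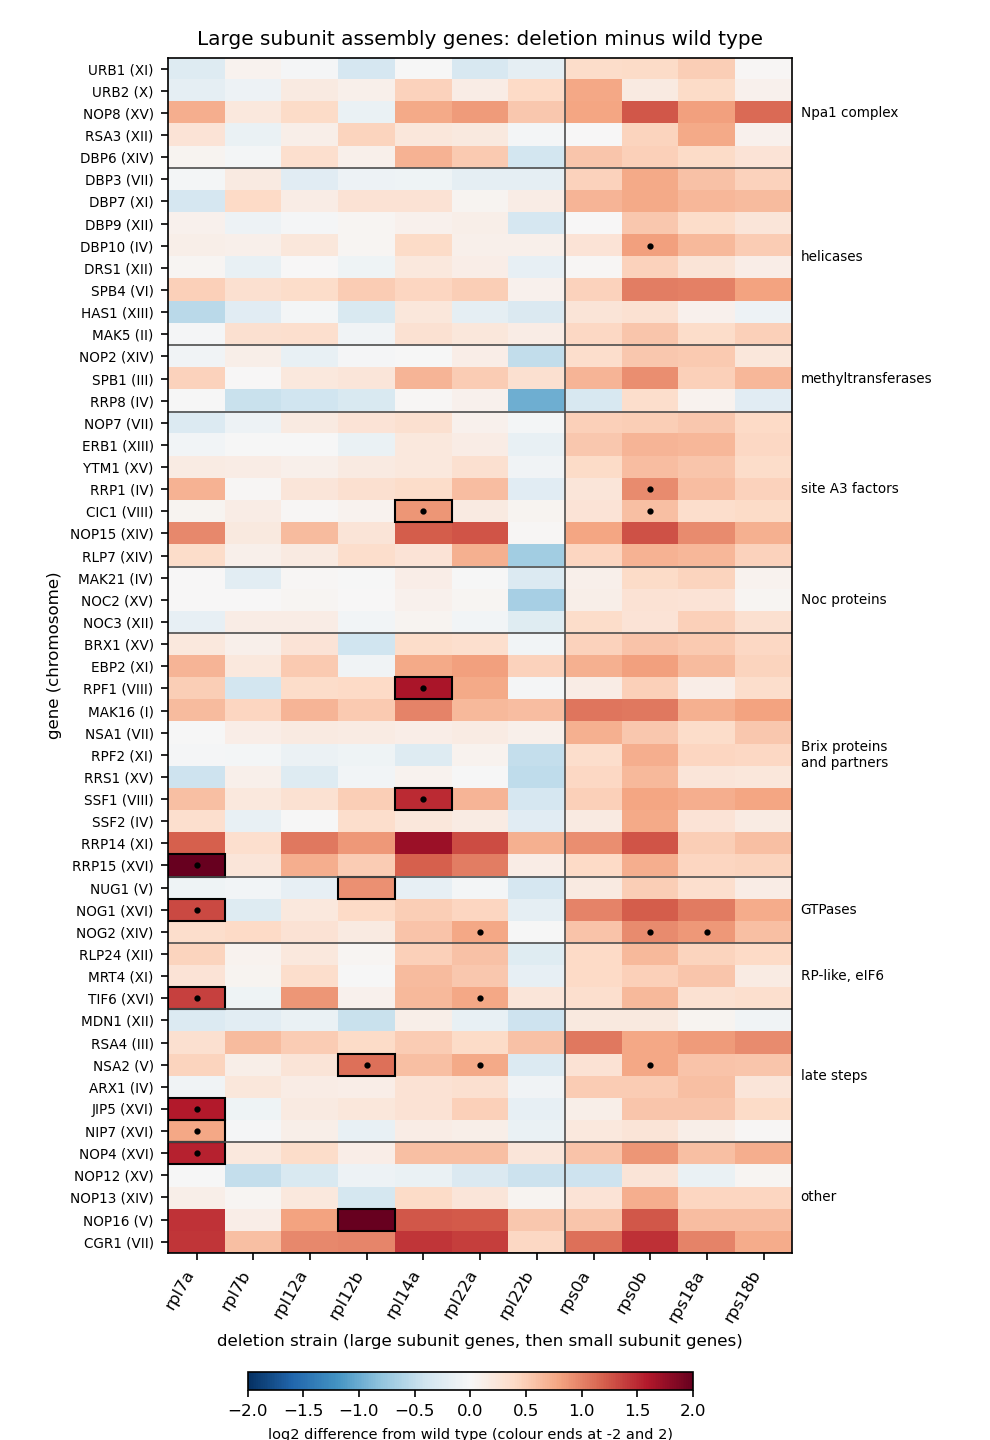
Each row is an assembly gene with its chromosome, grouped by role, and each column a deletion strain. Colour is the log2 difference from wild type, a black point marks adjusted p under 0.05, and a box marks the members on chromosome XVI in rpl7a, V in rpl12b and VIII in rpl14a. All 10 calls in those 3 strains lie in boxes in this fit, which takes no account of the replicate number. The 4 small subunit columns at the right are red for most genes.

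Apart from the members on a strain's own raised chromosome, calls against wild type were made in rpl22a, rps0b and rps18a, all higher in the deletion. Of the genes called there, NSA2, TIF6 and CIC1 lie on chromosomes V, XVI and VIII, and NOG2, RRP1 and DBP10 on others. With the probe sets of V, VIII and XVI left out, the count was 1 in rpl22a and 3 in rps0b. In rpl22a, 3 were called, on a background of 1.42% of probe sets called higher and 1.02% lower. NOG2, a GTPase that holds a place on the nucleoplasmic particle before export, had signals of 562 and 590 in rpl22a and 372 and 307 in wild type (0.77 ± 0.18, adjusted p = 0.0416). NSA2 had signals of 549 and 504 in rpl22a and 339 and 287 in wild type (0.76 ± 0.18, adjusted p = 0.0386). TIF6 had signals of 932 and 1252 in rpl22a and 652 and 616 in wild type (0.77 ± 0.18, adjusted p = 0.0354). Both rpl22a arrays lay above both wild-type arrays for each gene, and a second NOG2 probe set gave 0.82 ± 0.18 (adjusted p = 0.0302). The count was 1 without rpl22a replicate 1 and 0 without rpl22a replicate 2 or either wild-type array.

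In rps0b, 5 were called, on a background of 1.02% of probe sets called higher and 1.60% lower. NOG2 had signals of 691 and 609 in rps0b and 372 and 307 in wild type (0.94 ± 0.18, adjusted p = 0.0187). A second NOG2 probe set gave 0.84 ± 0.18 (adjusted p = 0.0305). RRP1, a partner of the Brix protein RPF1 in the nucleolar particle, had signals of 224 and 243 in rps0b and 113 and 130 in wild type (0.94 ± 0.22, adjusted p = 0.036). DBP10, an RNA helicase of the DEAD-box family, had signals of 254 and 375 in rps0b and 162 and 190 in wild type (0.81 ± 0.18, adjusted p = 0.0329). The groups did not overlap for any of these genes.

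NSA2 had signals of 600 and 470 in rps0b and 339 and 287 in wild type (0.77 ± 0.18, adjusted p = 0.0352). CIC1 had signals of 324 and 337 in rps0b and 239 and 198 in wild type (0.61 ± 0.15, adjusted p = 0.0491). These calls rested on all 4 arrays together: 1 member was called without rps0b replicate 1 and 0 without rps0b replicate 2 or either wild-type array.

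In rps18a only NOG2 was called, on a background of 0.226% of probe sets called higher and 0.442% lower, with signals of 681 and 554 in rps18a and 372 and 307 in wild type (0.86 ± 0.18, adjusted p = 0.0493). A second NOG2 probe set missed the threshold there (0.72 ± 0.18, adjusted p = 0.0784). The count was 0 without any one of the 4 arrays. NOG2 thus passed in rpl22a, rps0b and rps18a, which share the same 2 wild-type arrays. NOG2 had signals of 558 and 474 in rps18b (0.60 ± 0.18, adjusted p = 0.21), 491 and 511 in rps0a (0.57 ± 0.18, adjusted p = 0.219) and 328 and 346 in rpl22b (-0.01 ± 0.18, adjusted p = 1). Of rps18b, rps0a and rpl22b, only the rpl22b arrays overlapped with those of wild type. The NOG2 arrays of rpl7a (518.6 and 359.2) and rpl12b (428.5 and 341.1) also overlapped with them.

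No member was called in the other 5 deletions. At an unadjusted p under 0.05 there were 1 in rpl7b, 1 in rpl12a, 5 in rpl22b, 9 in rps0a and 13 in rps18b. The share of all probe sets at that threshold was 2.67% in rpl7b, 8.59% in rpl12a, 4.31% in rpl22b, 11.8% in rps0a and 10.6% in rps18b. The share of all probe sets called higher was 0.0108% in rpl7b, 0.108% in rpl12a, 0.0108% in rpl22b, 0.0863% in rps0a and 0.162% in rps18b. The share called lower was 0.0216% in rpl7b, 0.183% in rpl12a, 0.0108% in rpl22b, 0.205% in rps0a and 0.173% in rps18b. In rpl12a, TIF6 had signals of 1198 and 1140, against 652 and 616 in wild type, a difference that missed the threshold (0.88 ± 0.18, adjusted p = 0.0556). The count was 1 in rpl22b without wild type replicate 1 and 1 in rps0a without rps0a replicate 1.

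**Figure D2:**
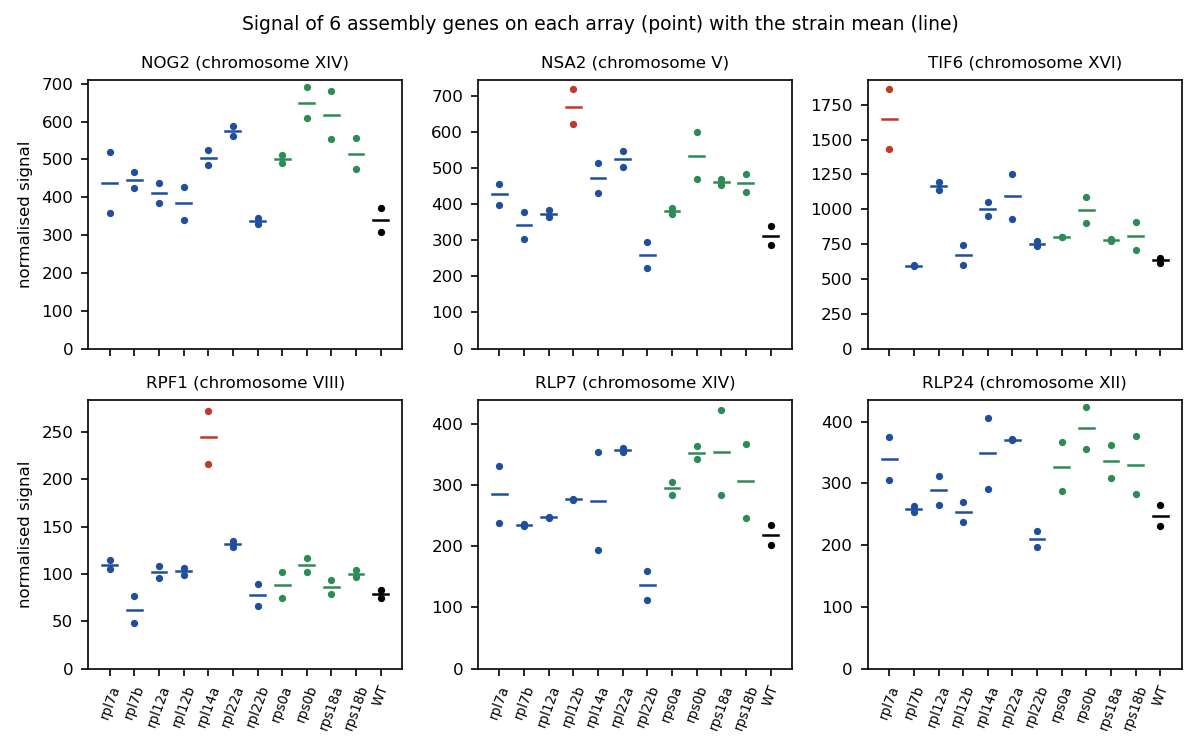
Normalised signal of 6 assembly genes on each array (points, 2 per strain) with the strain mean (line), deletions of large subunit genes in blue, of small subunit genes in green, wild type in black at the right. Red points mark the strain in which the gene's chromosome was raised: NSA2 at 720 and 622 in rpl12b, TIF6 at 1433 and 1864 in rpl7a and RPF1 at 217 and 273 in rpl14a.

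Single genes were therefore seldom called in the fit used here, which takes no account of the replicate number. The list as a whole sat above wild type in the small subunit deletions. In rps0b the 54 members had a median difference of 0.65, against 0.00 for all 9275 probe sets, and 54 of 54 were above 0, against 4483 of 9275. In rps18a the median was 0.51 (53 of 54 above 0), in rps18b 0.41 (51 of 54) and in rps0a 0.40 (52 of 54). Without normalization between arrays the medians were 0.45 in rps0b, 0.14 in rps18a, -0.05 in rps18b and 0.38 in rps0a, where all probe sets stood at -0.25 in rps18a and -0.36 in rps18b. Relative to all probe sets the members' medians stayed above 0.

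Both arrays of rps0b lay above both wild-type arrays for 46 of the 54 genes, against 22.8% of all probe sets. The number was 35 in rps18a, against 22.2%, 32 in rps18b, against 25.1%, and 32 in rps0a, against 19.3%. The reverse, both arrays below wild type, held for 1 member in rps0a, against 22.4% of probe sets, and for 0 in rps0b, rps18a and rps18b, against 24%, 21.6% and 21.3%.

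In the large subunit deletions the medians over all 54 genes were 0.34 in rpl14a, 0.28 in rpl22a, 0.19 in rpl7a, 0.18 in rpl12a, 0.10 in rpl12b, 0.08 in rpl7b and -0.10 in rpl22b. Over the 42 genes off chromosomes V, VIII and XVI they were 0.29 in rpl14a, 0.19 in rpl22a, 0.06 in rpl7a, 0.18 in rpl12a, 0.04 in rpl12b, 0.08 in rpl7b and -0.11 in rpl22b. Without normalization between arrays the median over the 54 turned to -0.12 in rpl7a and -0.06 in rpl12b, where all probe sets stood at -0.17 and -0.14. With median centring it was -0.00604 in rpl7a. In rpl7b it was -0.03 without wild type replicate 2 and 0.00019 without wild type replicate 1. Both arrays lay above both wild-type arrays for 29 members in rpl14a, against 21.4% of probe sets, and for 25 in rpl22a, against 21.6%. The number was 20 in rpl7a (23.3%), 16 in rpl12b (20.6%) and 11 in rpl12a (18.7%), each a share above or near that of all probe sets. It was 6 in rpl7b (16.4%) and 6 in rpl22b (14.6%). Both arrays lay below wild type for 2 members in rpl14a (29.5% of probe sets), 3 in rpl22a (27.7%), 3 in rpl7a (31.0%), 3 in rpl12b (21.1%), 1 in rpl12a (19.8%), 5 in rpl7b (17.3%) and 10 in rpl22b (14.1%). In rpl22b, 20 of 54 members were above 0. RRP8, a methyltransferase of the large subunit RNA, had signals of 224 and 269 in rpl22b and 264 and 891 in wild type (-0.98 ± 0.42, adjusted p = 1), so the strains overlapped.

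**Figure D3:**
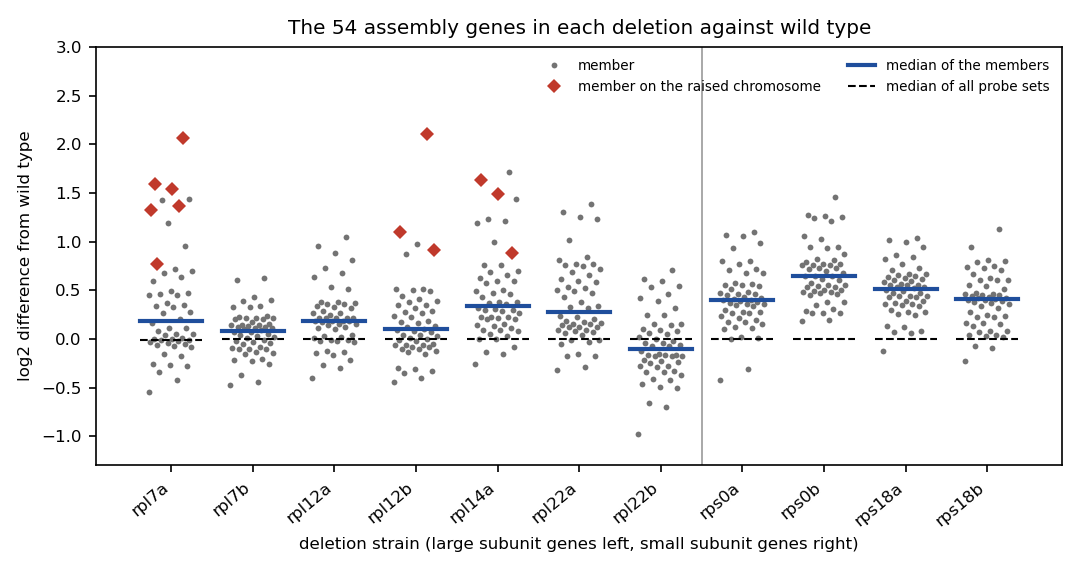
Each point is an assembly gene's log2 difference between a deletion and wild type, with the median of the 54 genes (blue line) and of all probe sets (dashed line), and red diamonds for members on the raised chromosome. The member medians were 0.40 to 0.65 in the 4 small subunit deletions and -0.10 to 0.34 in the 7 large subunit deletions; without normalization those of rps18b, rpl7a and rpl12b fall below 0.

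By role, the count of called members was small in every group. Of the 5 genes of the Npa1 complex (URB1, URB2, NOP8, RSA3 and DBP6), which joins the earliest large subunit particle, 0 were called in any deletion against wild type, with medians of 0.45 in rps0b and -0.04 in rpl22b. Of 9 DEAD-box helicases, which unwind precursor RNA, DBP10 in rps0b was the only call, and the median was 0.55 in rps0b and -0.17 in rpl22b. Of the 3 methyltransferases and 3 Noc proteins 0 were called in any deletion. NOC2, a Noc protein, had signals of 49.0 and 39.5 in rpl22b and 83.8 and 57.9 in wild type (-0.66 ± 0.25, adjusted p = 1).

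Of 7 factors needed for processing of the first internal spacer (NOP7, ERB1, YTM1, RRP1, CIC1, NOP15 and RLP7), RRP1 and CIC1 were called in rps0b. CIC1 was also called in rpl14a, and the median of the 7 in rps0b was 0.67. All 7 had an unadjusted p under 0.05 in rps0b, as did 31 of the 54 members (57.4%) and 16.1% of all probe sets. Of 11 Brix proteins and their direct partners the calls were RRP15 in rpl7a and RPF1 and SSF1 in rpl14a, each on its strain's raised chromosome. The median of the 11 was 0.73 in rps0b, with 7 at an unadjusted p under 0.05. Both medians lie near the 0.65 of all 54 members, and no role was tested against the others. Of 6 factors set together under late steps, although JIP5 and NIP7 are nucleolar, NSA2, JIP5 and NIP7 gave the calls against wild type. Of 3 GTPases, NOG1 was called in rpl7a and NOG2 in rpl22a, rps0b and rps18a. Of 5 other nucleolar factors (NOP4, NOP12, NOP13, NOP16 and CGR1), NOP4 in rpl7a was the only call. MDN1, the large AAA-type ATPase listed today as REA1, had signals of 204 and 265 in rps0b and 187 and 219 in wild type (0.20 ± 0.24, adjusted p = 0.78).

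RLP7, RLP24 and MRT4 resemble the ribosomal proteins Rpl7, Rpl24 and the stalk protein P0. RLP24 and MRT4 hold places on the precursor that Rpl24 and P0 take later. None of RLP7, RLP24 and MRT4 was called in a deletion against wild type. RLP7 had signals of 332 and 239 in rpl7a, 237 and 233 in rpl7b and 235 and 203 in wild type, with differences of 0.37 ± 0.28 (adjusted p = 0.545) in rpl7a and 0.11 ± 0.28 (adjusted p = 1) in rpl7b. In rps0b, RLP24 had 424 and 355 against 265 and 230 in wild type (0.65 ± 0.20, adjusted p = 0.0995). MRT4 had 702 and 948 in rpl14a and 632 and 440 in wild type (0.63 ± 0.22, adjusted p = 0.157).

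The copies of a pair were next set against each other. For RPL22, 4 members were higher in rpl22a than in rpl22b and 0 lower, on a background of 1.74% of probe sets higher and 1.09% lower. RLP7 had signals of 355 and 362 in rpl22a and 159 and 113 in rpl22b, a difference of 1.42 ± 0.28 (adjusted p = 0.0148). NSA2 had 549 and 504 in rpl22a and 297 and 223 in rpl22b (1.03 ± 0.18, adjusted p = 0.00648). RLP24 had 370 and 371 in rpl22a and 198 and 223 in rpl22b (0.82 ± 0.20, adjusted p = 0.0396), and NOG2 had 562 and 590 in rpl22a and 328 and 346 in rpl22b (0.77 ± 0.18, adjusted p = 0.0352).

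Both arrays of rpl22a were above both of rpl22b for 33 of the 54 genes, against 20.1% of all probe sets, and below for 0, against 24.7%. The median difference was 0.39, and 0.33 over the 42 genes off chromosomes V, VIII and XVI. The count of calls was 3 without rpl22b replicate 1 and 1 without rpl22b replicate 2 or either rpl22a array.

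For RPL7, 6 members were higher in rpl7a than in rpl7b, on a background of 3.01% of probe sets higher and 2.34% lower, and 5 of them lie on chromosome XVI: JIP5 (1.68 ± 0.18, adjusted p = 0.000157), NOG1 (1.58 ± 0.34, adjusted p = 0.0139), TIF6 (1.46 ± 0.18, adjusted p = 0.000365), NOP4 (1.34 ± 0.36, adjusted p = 0.0441) and NIP7 (0.79 ± 0.16, adjusted p = 0.0112). The exception was RPF1, on chromosome VIII, with signals of 105 and 115 in rpl7a and 48.2 and 76.4 in rpl7b (0.86 ± 0.22, adjusted p = 0.0375). RPF1 lost its call without rpl7b replicate 1 and without either rpl7a array. The count was 2 without rpl7a replicate 1 or rpl7b replicate 1, 3 without rpl7a replicate 2 and 5 without rpl7b replicate 2. Both arrays of rpl7a were above both of rpl7b for 24 members, against 22.9% of probe sets, and below for 4, against 30.2%.

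For RPL12, NSA2 was lower in rpl12a, with 366 and 383 against 720 and 622 in rpl12b (-0.84 ± 0.18, adjusted p = 0.028), and it lies on the chromosome raised in rpl12b. TIF6 was higher in rpl12a, with 1198 and 1140 against 601 and 746 in rpl12b (0.80 ± 0.18, adjusted p = 0.0331). The background was 0.550% of probe sets higher and 1.10% lower. The count was 1 without rpl12b replicate 1 and 0 without rpl12b replicate 2 or either rpl12a array. Both arrays of rpl12a were above both of rpl12b for 7 members, against 17.6% of probe sets, and below for 7, against 19.5%.

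For RPS0, 0 members were called between rps0a and rps0b (7 at an unadjusted p under 0.05, against 8.45% of probe sets), on a background of 0.0323% higher and 0.0539% lower. The members' median was -0.29, and both arrays of rps0a lay below both of rps0b for 24 of 54 genes, against 17.9% of probe sets, and above for 1, against 15.5%. For RPS18, 0 were called between rps18a and rps18b (1 at an unadjusted p under 0.05, against 4.81% of probe sets), on a background of 0.0108% higher and 0% lower, with a median of 0.13. Both arrays of rps18a were above both of rps18b for 11 members, against 14.7% of probe sets, and below for 2, against 13.6%.

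The 7 large subunit deletions were then compared with the 4 small subunit deletions, with the strain mean as the unit, so that wild type does not enter. Of the 54 genes 6 were lower in the large subunit deletions and 0 higher, on a background of 2.23% of probe sets lower and 1.09% higher. The median difference, large minus small, was -0.28, against 0.00 for all probe sets, and 49 of the 54 genes were below 0. NOP16, RPF1, RRP14, RRP15 and TIF6 were the 5 above 0, and 4 of these lie on chromosomes V, VIII or XVI. Over the 42 genes elsewhere the median was -0.33 and 41 were below 0.

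DBP3, a DEAD-box helicase, had strain means of 196 to 254 in the large subunit deletions and 302 to 373 in the small subunit deletions (-0.66 ± 0.09, adjusted p = 0.00571). ERB1, which forms a complex with NOP7 and YTM1, had strain means of 634 to 802 in the large subunit deletions and 934 to 1117 in the small subunit deletions (-0.57 ± 0.09, adjusted p = 0.00856). RPF2, a Brix protein that brings in the smallest ribosomal RNA of the subunit, had strain means of 237 to 341 in the large and 422 to 535 in the small subunit deletions (-0.62 ± 0.11, adjusted p = 0.015). Every large subunit deletion was below every small subunit deletion for these genes.

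The others were NSA1, a partner of RPF1 (-0.41 ± 0.07, adjusted p = 0.0141), RSA4, which the ATPase MDN1 acts on (-0.43 ± 0.08, adjusted p = 0.0199), and DBP7, a DEAD-box helicase (-0.54 ± 0.12, adjusted p = 0.0408). NSA1 had strain means of 111 to 127 in the large and 143 to 185 in the small subunit deletions. RSA4 had 104 to 123 in the large and 139 to 166 in the small subunit deletions. DBP7 had 43.9 to 73.5 in the large and 85.1 to 93.1 in the small subunit deletions. In wild type the strain means were 222 for DBP3, 704 for ERB1, 325 for RPF2, 111 for NSA1, 80.3 for RSA4 and 55 for DBP7, below the small subunit deletions in each case.

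For 13 members all 7 large subunit strain means lay below all 4 small subunit ones, against 3.63% of probe sets, and for 0 they lay above, against 2.03%. Besides the 6 called genes these were NOP2, NOP7, YTM1, BRX1, RRS1, MAK5 and NOC3. The difference kept its direction for each of the 6 called genes in the 41 alternatives run. DBP3 lost its call in 1 of them, ERB1 in 2, NSA1 and RPF2 in 5 each, RSA4 in 15 and DBP7 in 17. NSA1, RPF2 and RSA4 lost it without rpl7a, rpl12b and rpl14a, so the count given next for that setting includes other members. The number of calls was less stable: 0 without normalization between arrays, 1 with median centring, 5 without rpl7a, rpl12b and rpl14a, 3 without rps18a, and 3 to 11 without single arrays. The lowest of those came without rpl7b replicate 2. The higher counts were 11 without rps18b replicate 2 and 9 without rpl14a replicate 2 or rps0a replicate 2.

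Other ribosome biogenesis lists were also lower. Of 37 other large subunit assembly genes, such as the export adaptor NMD3, 4 were lower in the large subunit deletions (RIX7, SQT1, RRB1 and RRP5) and 0 higher, with a median of -0.27. Of 45 genes of the small subunit processome, the particle that makes the other subunit, 12 were lower and 0 higher, with a median of -0.34. In single deletions against wild type, the 37 other genes gave 2 calls in rps0b (REI1 and RIX1), 3 in rpl14a (NMD3, RIX1 and IPI1, all on chromosome VIII) and 1 in rpl12b (ARB1, on V), all higher. The processome genes gave 9 calls in rps0b. In rpl7a they gave 4, UTP9 on chromosome VIII and NOC4, BMS1 and RRP9 on the raised XVI. In rpl14a they gave 4, ROK1 on VII and UTP9, IMP3 and DBP8 on the raised VIII. The 2 in rpl12b (UTP7 and LCP5) lie on the raised V, and the 2 in rpl22a (UTP9 and IMP3) on VIII. All of these calls were higher in the deletion. The processome genes gave 0 calls in rpl7b, rpl12a, rpl22b, rps0a, rps18a and rps18b. There 1, 4, 2, 12, 19 and 12 of the 45 had an unadjusted p under 0.05.

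Of 16 genes induced in the environmental stress response, such as HSP12, 3 were higher in the large subunit deletions and 0 lower, with a median of 0.70 and 16 of 16 above 0. Their mean deviation from the average of all arrays ranged from -0.16 to 0.78 in the large subunit deletions, from -0.84 to -0.18 in the small subunit deletions, and stood at 0.14 and 0.28 in wild type. The 42 assembly genes off chromosomes V, VIII and XVI ranged from -0.36 to 0.23 in the large subunit deletions, from 0.04 to 0.43 in the small subunit deletions, and stood at -0.30 and -0.22 in wild type. The part of these genes in the difference between the classes was not tested. The ratio of the 3′ to the 5′ ACT1 control, a measure of RNA quality, was 1.68 to 2.33 in the large subunit deletions, 1.84 to 2.28 in the small subunit deletions, and 2.19 and 2.05 in wild type. The same ratio for the SPT15 control spread more widely in the large subunit deletions, from 2.72 in rpl22b replicate 2 to 7.82 in rpl12b replicate 2. It was 4.24 to 5.65 in the small subunit deletions, and 4.62 and 4.97 in wild type.

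**Figure D4:**
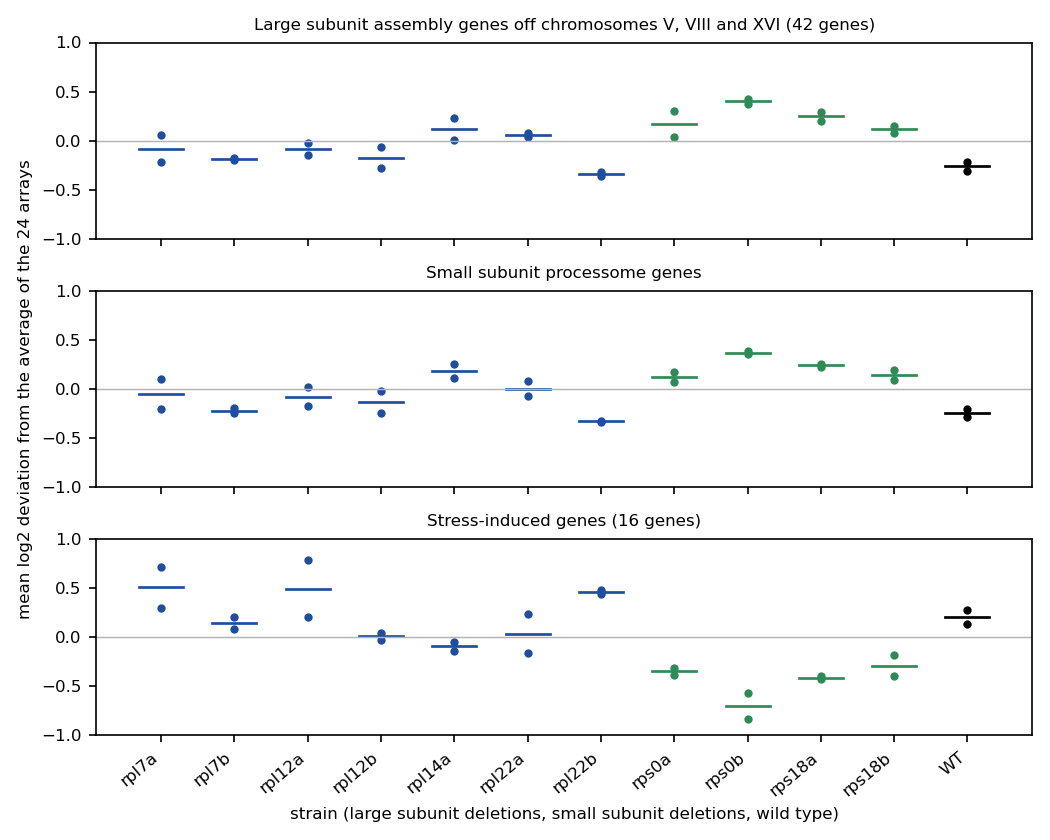
Mean log2 deviation of 3 gene lists from their average over the 24 arrays (points, 2 arrays per strain; lines, strain means), with large subunit deletions in blue, small subunit deletions in green and wild type in black. The assembly genes lie at 0.04 to 0.43 in the small subunit deletions, where the stress-induced genes lie at -0.84 to -0.18.

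Across all 12 strains a moderated F test called 11 of the 54 genes, on a background of 11.4% of probe sets. The 6 with the largest F were JIP5 (adjusted p = 0.00117), TIF6 (adjusted p = 0.00211), RPF1 (adjusted p = 0.00329), NSA2 (adjusted p = 0.00446), CIC1 (adjusted p = 0.0152) and NOG2 (adjusted p = 0.019), of which 5 lie on chromosomes V, VIII or XVI. The others were RPF2, NOG1, RRS1, RRP1 and DBP7. RRS1, the partner of RPF2, had strain means of 70.5 to 107 in the large subunit deletions, 118 to 157 in the small subunit deletions and 101 in wild type. The count was 6 without rps0b replicate 2 and 7 without rps0b replicate 1 or rps0a replicate 2. It was 2 of 42 when the probe sets of chromosomes V, VIII and XVI were left out, with the fit and the adjustment run anew on the rest. With all probe sets kept, NOG2, RPF2, RRS1, RRP1 and DBP7 were the genes called among those 42.

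The mean of the 11 deletions against wild type called 0 of 54 members by limma, 19 of them at an unadjusted p under 0.05, against 11.1% of probe sets, on a background of 0.108% of probe sets called higher and 0.302% lower. The median was 0.27 and 50 of 54 were above 0. The largest was CGR1, a coiled-coil nucleolar protein, at 1.05 ± 0.47 (adjusted p = 0.423), whose wild-type arrays read 22.01 and 75.3.

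The members varied together across strains. Over the 12 strain means the median Pearson correlation between pairs of members was 0.53, and 0.62 among the 42 off chromosomes V, VIII and XVI, against 0.00 between pairs of all 5656 genes. A correlation over 0.5 was seen in 54.6% of member pairs and 68.8% of pairs among the 42, against 8.69% of all gene pairs. These values are descriptions, since all genes share the same arrays. Each member was also set against the mean of the other members off chromosomes V, VIII and XVI. YTM1 followed that mean most closely (r = 0.95, 12 strains), followed by NOG2 (0.93) and ERB1 (0.92). NOP16 (0.20), RRP15 (0.23) and TIF6 (0.29) followed it least. Each of them lies on a chromosome raised in a strain, and no member on those chromosomes enters the mean. Of the 42 genes elsewhere 28 were highest in rps0b, 6 in rps18a, 4 in rps0a, 3 in rpl14a and 1 in rpl22a. The lowest strain was rpl22b for 19, wild type for 8, rpl12b for 7, rpl7a for 5, rpl7b for 2 and rpl12a for 1.

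YTM1 itself had strain means of 426 in rpl22b, 486 to 558 in the other large subunit deletions, 578 to 687 in the small subunit deletions and 449 in wild type. Signals of different probe sets are not comparable as amounts of RNA. Within their own probe sets, TIF6, ERB1 and NOG1 had mean signals over the 24 arrays of 900, 815 and 717, and NOP12, MAK16 and SSF2 of 33.2, 40.1 and 57.8. NOP12, which helps fold the subunit's RNA at low temperature, had signals of 42.6 and 44.2 in rps0b and 36.1 and 36.3 in wild type (0.26 ± 0.30, adjusted p = 0.756). MAK16, a partner of RPF1, had 33.1 and 76.8 in rps0a and 15.1 and 38.1 in wild type (1.07 ± 0.46, adjusted p = 0.385), with overlap between the strains.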

How the data were processed

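The deposited values are linear intensities, 1 per probe set and array, for 9335 probe sets on 24 arrays. How the authors summarised and scaled these deposited intensities is not stated in the labels used. Values under 3.6, the 10th percentile, were raised to it (9.89% of values), log2 transformed and quantile normalised over all probe sets, and 60 control probe sets were dropped. A signal is the normalised value off the log scale. A member was taken as above background where its deposited intensity exceeded the 95th percentile of 19 controls on that array.

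A single limma fit (limma 3.58.1, R 4.3.3) of 12 strain means on 24 arrays gave every comparison, with 12 residual degrees of freedom and Benjamini-Hochberg adjustment over 9275 probe sets. Large against small subunit deletions was fitted on 11 strain means. Tests are two-sided. Genes were named through the platform annotation: 6504 probe sets had 1 symbol, 328 several and 2443 none. The script was tested on simulated data.

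Full values are given for members called in a comparison, members on the raised chromosome of a strain, the 6 largest F, the 3 highest and 3 lowest mean signals, SSF1, SSF2, RLP7, RLP24 and MRT4; other values were chosen after they were seen. The members and lists were chosen with earlier results of these data known. Per the labels, the 2 arrays of a strain are biological replicates. Same-numbered replicates were not treated as pairs. The correlation of their deviations exceeded 0.1 in 19 of 66 strain pairs, ranging from -0.01 to 0.19. Replicate 2 was the higher in every strain for 93 of 9275 probe sets (1.00%), and replicate 1 for 82 (0.884%). These probe sets thus differed by replicate number in the same direction throughout, and the main fit takes no account of it. Whether their number exceeds that of a random order was not tested. With the replicate number as a block more members were called in several comparisons, as given below. No sequence table was given, so no promoter was examined. RPL12 and RPS18 copies share probe sets, so their deletion could not be checked.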

Additional observations from a re-analysis of the deposited data

Results flagged for a closer look

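Among the 7 large subunit deletions, NSA1 had its lowest strain mean in rpl7a, at 6.79 on the log2 scale, and the gap to the next strain was 0.57 of the range of the group. That next strain, rpl22b, stood at 6.895, and wild type stood at 6.793, the level of rpl7a. Of 14 groups of strains examined for such a value, chance gives about 1 in 20.

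Deletions of the 2 copies of a gene differed for the following members, by limma's adjusted p, as first copy minus second copy on the log2 scale. Between rpl7a and rpl7b the differences were 1.34 for NOP4, 0.86 for RPF1, 0.79 for NIP7, 1.58 for NOG1, 1.46 for TIF6 and 1.68 for JIP5. All but RPF1 lie on chromosome XVI. Between rpl12a and rpl12b they were -0.84 for NSA2, which lies on chromosome V, and 0.80 for TIF6. Between rpl22a and rpl22b they were 0.77 for NOG2, 1.03 for NSA2, 1.42 for RLP7 and 0.82 for RLP24.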

How the results depend on the processing

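Counts below are of called members, without the share of all probe sets called under each alternative. Without normalization between arrays they were 2 in rpl7a and 0 in rpl12b, rpl22a, rps0b and rps18a against wild type, 2 for rpl7a against rpl7b, 0 for rpl12a against rpl12b and rpl22a against rpl22b, 0 for large against small subunit deletions and 2 for the F test. With median centring they were 0 in rpl22a, 1 in rps0b and 0 in rps18a against wild type, 0 for the RPL12 pair, 2 for the RPL22 pair, 1 for large against small and 5 for the F test. With log2(value + 1) they were 0 in rpl22a, 1 in rps0b, 0 in rps18a, 1 for the RPL12 pair and 2 for the RPL22 pair. A floor at the 25th percentile gave 1 in rpl12a, as did limma's trend and robust options. With the probe sets of chromosomes V, VIII and XVI left out they were 0 in rpl7a, rpl12b and rpl14a, where no member on those chromosomes was tested, 1 in rpl22a, 3 in rps0b and 2 for the F test. With only the 4 arrays compared, 0 were called in rpl7a, rpl12b, rpl14a, rpl22a, rps0b and rps18a against wild type and in the RPL7, RPL12 and RPL22 pairs. Leaving out strain rps18a gave 3 for large against small, an alternative chosen after seeing the data, as was leaving out rpl7a, rpl12b and rpl14a. Where no cause is named, the cause was not tested.

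With the replicate number as a block the counts were 1 in rpl12a, 3 in rpl12b, 11 in rpl14a, 6 in rpl22a, 13 in rps0b, 2 in rps18a, 7 for the RPL22 pair and 24 for the F test. Each of these counts was above that of the fit without the block, and the 11 in rpl14a exceed the 3 members on chromosome VIII. The shares of all probe sets given above belong to the fit without the block, so they are no background for these counts. Whether the rise is particular to the members therefore cannot be read from them. The replicate numbers share no stated origin.

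Without single arrays the counts ranged as follows: 2 to 4 in rpl7a, 0 to 1 in rpl12b, 1 to 2 in rpl14a, 0 to 1 in rpl22a, 0 to 1 in rpl22b, 0 to 1 in rps0a, 0 to 1 in rps0b, 0 to 0 in rps18a, 2 to 5 for the RPL7 pair, 0 to 1 for the RPL12 pair, 1 to 3 for the RPL22 pair, 3 to 11 for large against small and 6 to 11 for the F test. The members' median then ranged from -0.031 to 0.048 in rpl7b, from -0.13 to -0.012 in rpl22b, from 0.52 to 0.66 in rps0b, from 0.42 to 0.56 in rps18a and from 0.29 to 0.44 in rps18b.

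The median difference of the members from wild type without normalization was -0.12 in rpl7a, 0.000967 in rpl7b, -0.059 in rpl12b, 0.10 in rpl22a, -0.31 in rpl22b, 0.45 in rps0b, 0.14 in rps18a and -0.047 in rps18b. The median of all probe sets was then -0.17 in rpl7a, -0.14 in rpl12b, -0.18 in rpl22b, -0.25 in rps18a and -0.36 in rps18b, and relative to it only the rpl22b members lay below. With median centring the members' median was -0.00604 in rpl7a, 0.18 in rps0a, 0.49 in rps0b and 0.37 in rps18a. None of the called differences of single members turned its direction in the alternatives run. With 2 arrays per strain, a difference that missed the threshold may still exist.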

Other observations

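Values are given here for SDO1 and NMD3, late factors of the large subunit outside the 54 genes, chosen after their values were seen. SDO1, which releases TIF6 from the large subunit, was higher in rpl22a than in rpl22b (1.29 ± 0.28, adjusted p = 0.0242, limma). NMD3, the export adaptor on chromosome VIII, was higher in rpl14a than in wild type (1.33 ± 0.29, adjusted p = 0.0253).

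Some members differed between the replicate numbers in every strain. Replicate 2 was above replicate 1 in 12 of 12 strains for EBP2, NOP16 and RRP15, which is 5.56% of the 54 members, against 1.00% of all 9275 probe sets. In at least 11 of 12 strains the same held for 6 members, CGR1, MAK16 and RRP14 included, which is 11.1%, against 3.87%. In 10 members, ERB1, YTM1 and NOP2 included, replicate 2 was the higher in 1 of 12 strains. The share of all probe sets with that pattern was not counted. Replicate 1 was the higher in all 12 strains for 0 members, against 0.884% of all probe sets. The labels used do not say what a replicate number stands for.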
